A study of Sus scrofa with 2 samples.

Results

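The promoter peaks described here are the ZBTB16 CUT&Tag peaks that the authors placed in a promoter and assigned to a noncoding RefSeq transcript, that is, one whose accession begins with XR_ (a computed model) or NR_ (a curated record). Replicate 1 held 631 of them among 6251 promoter peaks (10.1%, 95% Wilson interval 9.37 to 10.9) and 10273 peaks in all. Replicate 2 held 453 among 4673 promoter peaks (9.69%, 8.88 to 10.6) and 7301 in all. The data were 1 group of 2 libraries, replicate 1 and replicate 2, from wild-type (WT) immature spermatogonia of pig testis, with 100000 cells per library. CUT&Tag uses an antibody to direct a transposase to a chromatin protein and sequences the released fragments. No second condition was compared. The libraries were therefore compared with each other, and the noncoding promoter peaks with the 5552 and 4167 promoter peaks of coding transcripts (accessions beginning with XM_ or NM_) in replicate 1 and replicate 2. The peak lists hold no expression values, so the labelled cell type was not checked against marker genes, and the labels do not say whether the libraries came from separate animals or cultures.

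ZBTB16 (PLZF) is a DNA-binding zinc finger protein that undifferentiated spermatogonia express, and mice without it lose their spermatogonial stem cells over time. Long noncoding RNAs (lncRNAs) are transcripts without a long open reading frame. Many are transcribed away from the start of a coding gene, on the opposite strand and from the same nucleosome-free promoter. Coding genes can also give rise to noncoding transcripts through alternative splicing, and microRNAs are cut from longer primary transcripts whose start can lie far from the annotated hairpin.

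The noncoding class was a mixture of kinds of gene. By the gene types of the RefSeq table for Sscrofa11.1, 385 of the 631 replicate 1 peaks (61.0%) and 267 of the 453 replicate 2 peaks (58.9%) belonged to lncRNA genes. A further 225 (35.7%) and 170 (37.5%) belonged to protein-coding genes through a noncoding transcript of that gene. The remaining 21 and 16 were at microRNA hairpins, other small RNAs, miscellaneous RNAs and transcribed pseudogenes. The split between LOC-numbered genes, which have no name beyond their number, and genes with a symbol followed the same line. Of the LOC-numbered peaks, 367 of 386 in replicate 1 (95.1%) and 252 of 266 in replicate 2 (94.7%) were at lncRNA genes. Of the peaks at genes with a symbol, 212 of 245 (86.5%) and 161 of 187 (86.1%) were at protein-coding genes. LOC numbers made up 61.2% and 58.7% of the noncoding peaks, against 4.25% and 4.13% of the peaks of coding transcripts. The 18 replicate 1 peaks at lncRNA genes with a symbol were at genes such as MRPS12, EIF4B and SNRPB, which carry the names of protein genes and are typed as lncRNA in the table.

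**Figure D1:**
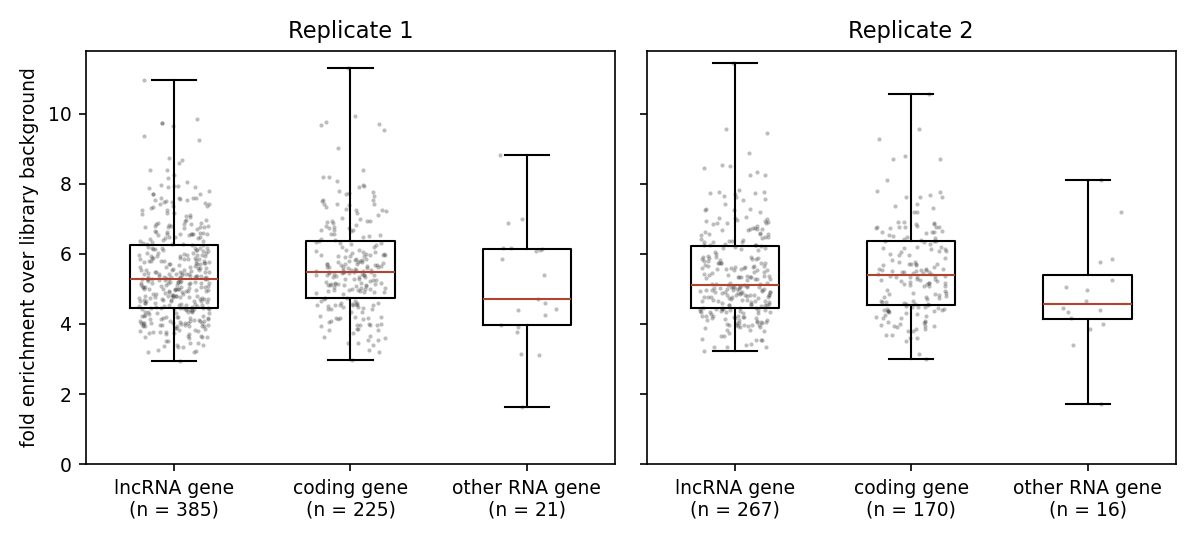
Fold enrichment over the library background of each noncoding promoter peak, by the type of gene it was assigned to, in replicate 1 (left) and replicate 2 (right). Points are peaks, boxes give quartiles with the median in red, and whiskers reach the lowest and highest peak. The median was 5.29 in replicate 1 and 5.12 in replicate 2 for lncRNA genes, and 5.49 and 5.41 for coding genes with a noncoding transcript.

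The medians of noncoding and coding promoter peaks lay close together. For noncoding peaks the median fold enrichment was 5.37 (quartiles 4.53 and 6.27), against 5.33 for coding transcripts (4.53 and 6.44), in replicate 1. In replicate 2 it was 5.25 (4.46 and 6.26), against 5.25 (4.52 and 6.21). The median number of fragments at the summit was 18 for noncoding and 19 for coding peaks in replicate 1, and 15 and 16 in replicate 2. The strongest noncoding peak reached 11.3-fold in replicate 1 and 11.4-fold in replicate 2, while the strongest coding one reached 18.5-fold and 18.4-fold, in a class with many more peaks. LOC-numbered peaks had a median fold of 5.30 and 5.07, and peaks at genes with a symbol 5.47 and 5.38, in replicate 1 and replicate 2. These are values of single peaks within 1 library each and were not tested.

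Noncoding and coding peaks spanned the transcription start site (TSS) in close shares. Of the noncoding peaks, 524 in replicate 1 (83.0%, 79.9 to 85.8) and 372 in replicate 2 (82.1%, 78.3 to 85.4) spanned the TSS, against 82.8% (81.8 to 83.8) and 82.5% (81.3 to 83.6) of the coding peaks. Where a peak spanned the TSS, the median summit lay at -17.5 bp from the TSS for noncoding and at -2 bp for coding transcripts in replicate 1, and at -12 bp and -2 bp in replicate 2, where negative values are upstream. The quartiles of the noncoding summits in replicate 1 were -162 bp and 115 bp, so these offsets are small against their spread. The farthest noncoding peak in the authors' promoter class lay at -2864 bp from the TSS, and the farthest coding one at -2995 bp. Only 19 and 11 noncoding peaks lay more than 1 kb upstream. Of these, 4 of 19 in replicate 1 (21.1%, 8.51 to 43.3) overlapped a peak of the other library, against 47 of 109 such coding peaks (43.1%, 34.2 to 52.5). In replicate 2 it was 5 of 11 (45.5%, 21.3 to 72.0), against 51 of 67 (76.1%, 64.7 to 84.7).

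The 10 strongest LOC-numbered genes with a peak in both libraries, ranked by the lower of the 2 within-library ranks of fold, were all typed as lncRNA. Their names give no function, but the coding genes beside them are known. LOC102157444 on chromosome 2 (peak 134660321 to 134661118) had a fold of 9.37 in replicate 1, from 48 fragments (exact 95% Poisson interval 35.4 to 63.6), and of 9.45 in replicate 2, from 35 fragments (24.4 to 48.7). Its TSS lies 82 bp from the end of SLC22A5, the carnitine transporter gene. LOC102163309 on chromosome 5 (18587996 to 18588848), 127 bp from SP1, a zinc finger transcription factor of GC-rich promoters, had folds of 9.25 and 8.25 from 81 and 57 fragments. LOC110259509 on chromosome 2 (142165353 to 142166247), 210 bp from ANKHD1, an ankyrin repeat and KH domain protein, had folds of 8.25 and 9.57. The fold was thus higher in replicate 1 at LOC102163309 and in replicate 2 at LOC110259509, and nearly equal at LOC102157444.

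LOC102165025 lay 382 bp from WASF2, an activator of actin branching (7.50-fold and 7.75-fold), and LOC110260105 lay 77 bp from SF3B6, a subunit of the spliceosomal SF3b complex (7.70-fold and 7.24-fold). LOC102164985 lay 161 bp from SUCO (7.33-fold and 7.41-fold). In LOC102157750 (9.72-fold and 7.71-fold) and LOC110260311 (7.42-fold and 7.65-fold) the TSS lay inside a coding gene, 321 bp and 323 bp from the near end of SAYSD1 and of the phosphatase gene DUSP23. LOC106506015 also began inside a coding gene, with no end of that gene within 1 kb downstream of the TSS (7.37-fold and 8.25-fold). LOC102157946 is on an unplaced scaffold (7.59-fold and 7.03-fold), where the recovered background was 26.7 and 19.9 fragments, against a median of 2.63 and 2.15 over the noncoding peaks.

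Among genes with a symbol, FLCN, which encodes folliculin, a regulator of amino acid signalling to mTORC1 and TFE3, was the strongest. Its peak (chromosome 12, 61028890 to 61029521) had a fold of 11.3 in replicate 1, from 68 fragments (52.8 to 86.2), and 9.29 in replicate 2, from 43 fragments (31.1 to 57.9). DDX11, a DNA helicase of sister chromatid cohesion, followed with 9.71-fold and 8.72-fold. RNF32, a RING finger gene, had 9.93-fold and 8.71-fold. RAB28, a small GTPase, had 9.01-fold and 8.80-fold (chromosome 8, 9125227 to 9125829). DCAF1, a substrate receptor of the CUL4 ubiquitin ligase, had 9.54-fold and 7.30-fold. CTNNBIP1, an inhibitor of the binding of beta-catenin to TCF factors, had 9.68-fold and 7.37-fold. All of these are protein-coding genes. GSTZ1, an enzyme of tyrosine breakdown (7.74-fold and 7.68-fold), is also coding and begins 53 bp from POMT2, a protein O-mannosyltransferase. MRPS12 (10.96-fold and 8.53-fold), named for a mitochondrial ribosomal protein, and TGOLN2 (8.39-fold and 7.76-fold), for a protein of the trans-Golgi network, are typed as lncRNA. MIR6782 completed the 10 and is described with the microRNAs.

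**Figure D2:**
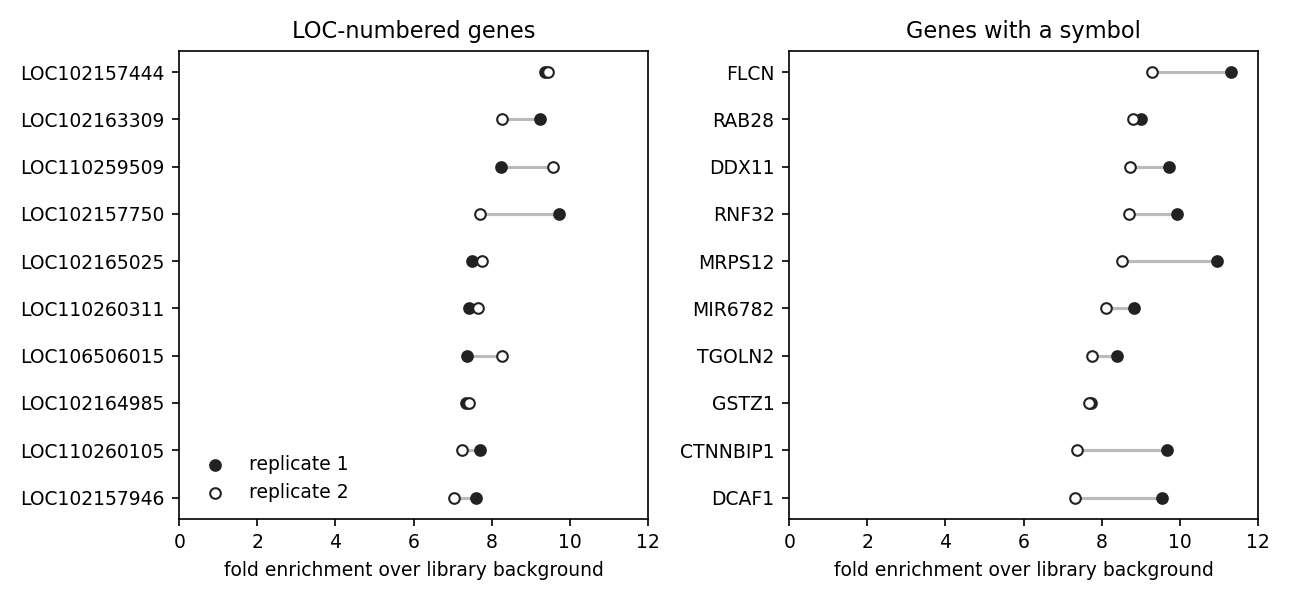
Fold enrichment of the strongest noncoding promoter peak of each gene in replicate 1 (filled) and replicate 2 (open), for the 10 highest-ranked LOC-numbered genes (left) and the 10 highest-ranked genes with a symbol (right). The grey line joins the 2 libraries. LOC102157444 had nearly equal values (9.37 and 9.45), and FLCN a wider gap (11.3 and 9.29).

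Where a noncoding peak was at a coding gene, the transcript assigned to it usually started at or near the start of that gene. On placed chromosomes, 160 of 218 such peaks in replicate 1 (73.4%) and 124 of 167 in replicate 2 (74.3%) were assigned to a noncoding transcript whose TSS lay within 100 bp of the outer 5′ end of its gene, and in 118 and 93 the positions were identical. This was so at FLCN, RAB28, GSTZ1 and CTNNBIP1. The TSS lay 116 bp inside the gene at DCAF1, 541 bp at RNF32 and 4399 bp at DDX11. In 30 and 22 cases it lay more than 1 kb inside. The median gene of this kind also had 3 coding transcripts in the RefSeq table, so a peak at the shared start cannot be attributed to the noncoding transcript over the coding ones.

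The peaks at lncRNA genes lay beside another, coding gene more often than the peaks of coding transcripts did. In replicate 1, 164 of the 380 peaks at lncRNA genes on placed chromosomes (43.2%, 38.3 to 48.2) had the end of a coding gene within 1 kb upstream of the lncRNA's TSS, against 759 of 5504 peaks of coding transcripts (13.8%, 12.9 to 14.7). In replicate 2 it was 113 of 265 (42.6%, 36.8 to 48.7), against 611 of 4135 (14.8%, 13.7 to 15.9). The intervals of the 2 classes did not overlap in either library, and no test was run because neighbouring genes share peaks. For coding genes with a noncoding transcript the share was 22.5% (17.4 to 28.5) and 22.2% (16.5 to 29.0). The median gap was 104.5 bp and 127 bp at lncRNA genes, against 172 bp and 182 bp at coding transcripts. A further 24.7% (20.7 to 29.3) and 24.2% (19.4 to 29.6) of the lncRNA peaks had a TSS inside a coding gene, against 7.89% (7.20 to 8.63) and 7.52% (6.76 to 8.37). No coding gene end or body lay at or within 1 kb upstream of the TSS in 32.4% (27.9 to 37.2) and 33.6% (28.2 to 39.5), against 78.5% (77.4 to 79.6) and 77.8% (76.5 to 79.1). Many lncRNA genes lie close to coding genes with or without a peak. Of the 5600 in the table, 1861 overlap a coding gene and 552 lie within 1 kb of one without overlapping it. The shares given here were not computed over all genes.

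The gene table gives no strand, so the strand of a neighbour is known only where the authors assigned that neighbour a peak. Of the upstream neighbours of lncRNA genes, 41 in replicate 1 and 26 in replicate 2 had a known strand. All 41 (100%, 91.4 to 100) and all 26 (100%, 87.1 to 100) lay on the opposite strand, so that the pair points apart. Of the 176 and 138 such neighbours of coding transcripts, 62.5% (55.2 to 69.3) and 63.8% (55.5 to 71.3) did. The strand of the other 123 and 87 neighbours of lncRNA genes was not known here. Neighbours that were assigned a peak may differ from these in strand, so the shares above hold only for neighbours with one.

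One peak often covered both the lncRNA start and the near end of the coding gene. In 128 of the 164 replicate 1 cases (78.0%, 71.1 to 83.7) and 84 of the 113 replicate 2 cases (74.3%, 65.6 to 81.5), the peak held both, against 63.1% (59.6 to 66.5) and 57.9% (54.0 to 61.8) at coding transcripts. Gaps within 200 bp were also more frequent at lncRNA genes, at 80.5% and 76.1%, against 54.7% and 53.8% at coding transcripts. The part of the gap in this difference was not tested. The summit was nearer to the coding gene's end in 83 (50.6%) and 50 (44.2%), against 37.5% and 33.2% at coding transcripts. Each peak was assigned to 1 gene. In 143 of the 164 (87.2%) and 98 of the 113 (86.7%) the coding neighbour had no promoter peak of its own in either library. The share was close at coding transcripts, with 636 of 759 (83.8%) and 507 of 611 (83.0%). Of all 20645 protein-coding genes, only 27.4% had a promoter peak in replicate 1 and 20.8% in replicate 2. Whether the assignment to 1 gene left these neighbours without a peak was not tested.

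In all, 66 coding genes without a promoter peak of their own had their near end under a peak of an lncRNA gene in both libraries, with a median fold of 5.89 and 5.62. Examples chosen after their values were seen show what such genes do. SARS2, the mitochondrial seryl-tRNA synthetase gene, lies 124 bp from the MRPS12 start. TNRC6B, a partner of Argonaute in microRNA silencing, had its near end under the peak of LOC102162756 (7.92-fold and 6.88-fold). PUM2, an RNA-binding repressor of translation, had it under that of LOC102158392 (5.74-fold and 6.89-fold). PRMT5, an arginine methyltransferase, had it under that of LOC110261594 (4.65-fold and 4.68-fold). TSC1, an inhibitor of mTORC1, had it under that of LOC110256471 (5.08-fold and 3.64-fold), from 18 and 9 fragments. Where the strand of the coding gene is unknown, as for TSC1 and SARS2, this end may be where the gene starts or where it finishes. The replicate 2 value at TSC1 was the lowest of the 66 in that library.

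**Figure D3:**
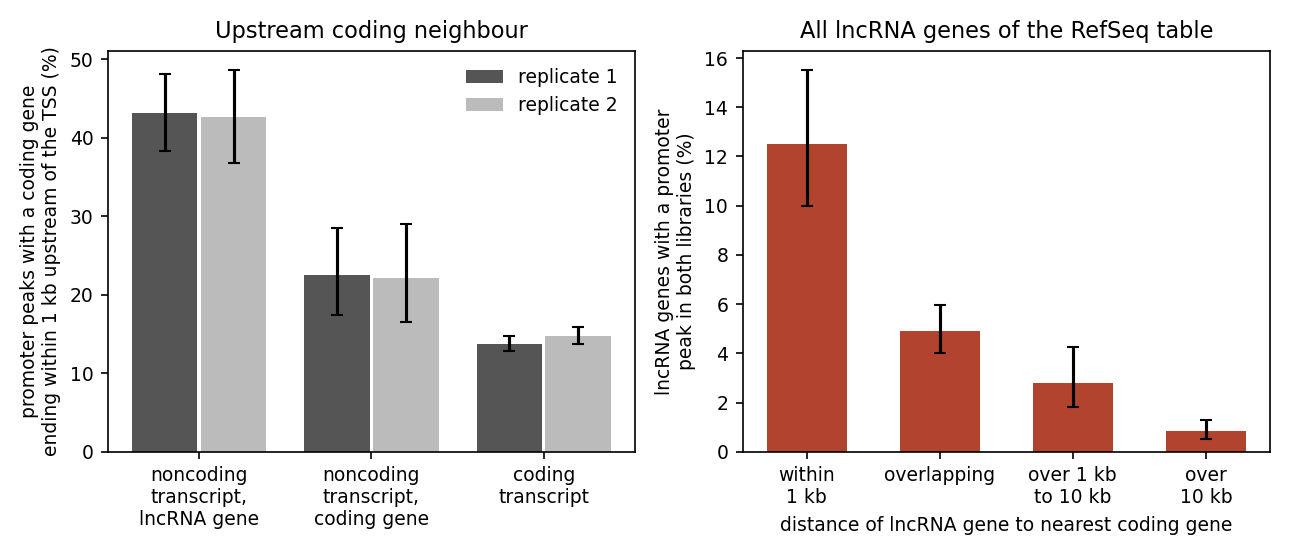
Left, the share of promoter peaks with a coding gene end within 1 kb upstream of the assigned TSS, for noncoding transcripts of lncRNA genes, noncoding transcripts of coding genes and coding transcripts, in replicate 1 (dark) and replicate 2 (light). Right, the share of all lncRNA genes in the RefSeq table with a promoter peak in both libraries, by distance to the nearest coding gene. Error bars are 95% Wilson intervals. The left panel falls from 43.2% at lncRNA genes to 13.8% at coding transcripts in replicate 1, and the right panel from 12.5% within 1 kb to 0.828% beyond 10 kb.

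Few lncRNA genes carried a promoter peak, and most of those that did overlapped a coding gene or lay within 1 kb of one. Of the 5600 lncRNA genes in the table, a promoter peak was found in each library for 201 (3.59%, 3.13 to 4.11), against 3574 of 20645 protein-coding genes (17.3%, 16.8 to 17.8) and 12.7% of all genes in the table. The share was 12.5% (10.0 to 15.5) of the 552 lncRNA genes that lie within 1 kb of a coding gene without overlapping it, and 4.89% (4.0 to 5.97) of the 1861 that overlap one. It was 2.79% (1.81 to 4.26) of the 718 at over 1 kb to 10 kb and 0.828% (0.531 to 1.29) of the 2294 farther away. Within 1 kb, 23.2% had a promoter peak in replicate 1 and 15.4% in replicate 2. Genes of a pair share a peak and neighbouring genes are not independent, so these intervals cover counting error only.

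No difference in recurrence between the libraries was detected for noncoding against coding transcripts or for LOC-numbered genes against genes with a symbol. Of the noncoding peaks of replicate 1, 407 of 631 shared at least 1 bp with a peak of replicate 2 (64.5%, 60.7 to 68.1), against 3733 of 5552 coding ones (67.2%, 66.0 to 68.5) and 66.9% of all promoter peaks. The odds ratio was 0.885 (95% interval 0.743 to 1.06, adjusted exact p = 0.227). Each p is two-sided, from Fisher's test, and adjusted by Benjamini-Hochberg over the 4 comparisons of recurrence. Of the noncoding peaks of replicate 2, 389 of 453 overlapped a replicate 1 peak (85.9%, 82.4 to 88.8), against 3619 of 4167 (86.8%, 85.8 to 87.8) and 86.7% of all promoter peaks (odds ratio 0.920, 0.693 to 1.24, adjusted exact p = 0.559). LOC-numbered peaks recurred in 62.2% (57.2 to 66.9), against 68.2% (62.1 to 73.7) of peaks at genes with a symbol, in replicate 1 (odds ratio 0.768, 0.539 to 1.09, adjusted exact p = 0.227). In replicate 2 it was 83.8% (78.9 to 87.8), against 88.8% (83.4 to 92.5; odds ratio 0.656, 0.356 to 1.18, adjusted exact p = 0.227). None of the 4 passed the threshold of 0.05, and the intervals leave room for lower odds of recurrence. Peaks of 1 library are not replicates, so these tests compare peaks within these libraries only.

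In both classes recurrence was higher where more fragments lay at the summit. Among replicate 1 peaks with 7 to 14 fragments, 31.7% of noncoding (25.5 to 38.7) and 35.3% of coding peaks (32.9 to 37.8) recurred. Among those with 26 or more, 96.3% (91.6 to 98.4) and 95.3% (94.0 to 96.3) did. In replicate 2, all 93 noncoding peaks with 22 or more fragments recurred (100%, 96.0 to 100), against 99.8% (99.2 to 99.9) of coding ones. Noncoding peaks were somewhat more often in the lowest quartile, at 29.5% against 26.3% in replicate 1 and 30.2% against 25.6% in replicate 2. With peaks stratified by decile of summit fragments, the odds ratio of noncoding against coding was 0.983 in replicate 1 and 1.07 in replicate 2. The lower recurrence did pass in replicate 1 when both lists were limited to peaks at or above their median fold (51.8% against 60.4%, odds ratio 0.702, adjusted exact p = 0.00399).

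**Figure D4:**
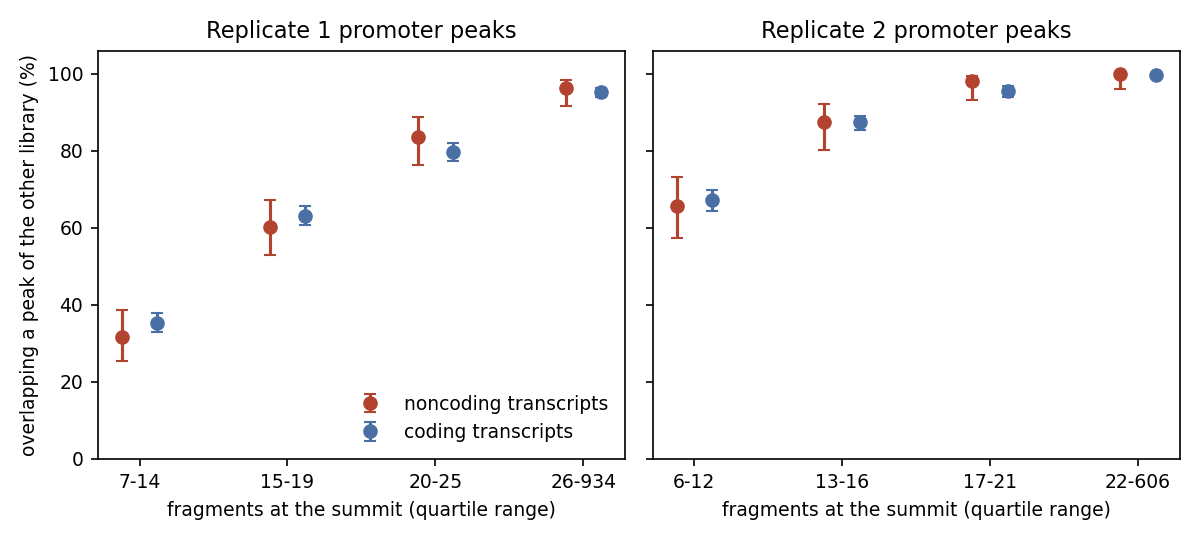
Share of noncoding (red) and coding (blue) promoter peaks that overlapped any peak of the other library, by quartile of fragments at the summit, for replicate 1 (left) and replicate 2 (right). Error bars are 95% Wilson intervals. Both classes climb together, in replicate 1 from 31.7% and 35.3% in the lowest quartile to 96.3% and 95.3% in the highest.

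Among lncRNA peaks, the share that recurred was larger beside a coding neighbour, a difference that was not tested. At lncRNA genes with a coding gene end within 1 kb upstream, 72.6% of replicate 1 peaks recurred (65.3 to 78.8, median 19 fragments), against 55.1% (48.4 to 61.6, median 16 fragments) of the other lncRNA peaks. In replicate 2 it was 92.9% (86.6 to 96.4, median 17 fragments), against 77.0% (69.7 to 83.0, median 14 fragments). Peaks of coding transcripts showed the same order, with 77.5% (74.4 to 80.3, median 22 fragments) against 65.6% (64.3 to 67.0, median 18 fragments) in replicate 1. Fragment numbers moved with these shares, and their part in the difference was not tested.

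The transcript assigned to a recurring peak was not always the same. Of the 407 recurring noncoding peaks of replicate 1, 334 (82.1%) met a replicate 2 peak of the same transcript and 9 one of another noncoding transcript of the same gene. Another 24 (5.90%) met a promoter peak of a coding transcript of a different gene and 14 one of a coding transcript of the same gene. A further 23 (5.65%) met a peak outside the promoter class, and some of these were also assigned to a different coding gene, such as RPLP1. The strongest noncoding peak of replicate 2 was such a case. LOC102163552 (chromosome 17, 26759815 to 26760642) had 11.4-fold from 36 fragments, and the overlapping replicate 1 peak, with 9.22-fold from 31 fragments, was assigned to SEC23B, a COPII coat gene whose end lies 104 bp away on the opposite strand. The second strongest, METTL25 (10.5-fold in replicate 2), met a replicate 1 peak of 7.63-fold assigned to CCDC59. These cases were chosen after their values were seen. Counting only a promoter peak assigned to the same gene in the other library, LOC-numbered peaks recurred less often than those at genes with a symbol, at 52.1% against 65.7% in replicate 1 (odds ratio 0.567, adjusted exact p = 0.00374) and 75.9% against 85.6% in replicate 2 (odds ratio 0.533, adjusted exact p = 0.0166). Noncoding peaks then also recurred less often than coding ones in replicate 1 (57.4% against 63.5%, odds ratio 0.773, adjusted exact p = 0.00538).

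By gene, 343 carried a noncoding promoter peak in both libraries, which is 54.8% of the 626 genes of replicate 1 and 76.4% of the 449 of replicate 2. For genes with a coding promoter peak it was 62.8% of 5441 and 82.9% of 4123.

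Where a noncoding peak overlapped one of the other library, the folds were close. Across the 407 pairs the median ratio of replicate 1 to replicate 2 fold was 1.08, with quartiles of 0.932 and 1.23. The folds differed by more than 1.5 times in 18 pairs (4.42%), against 5.81% of all overlapping promoter peaks, a share near that of the background. In 17 of the 18 the replicate 1 value was the higher one, against 187 of the 243 among all promoter pairs, a difference that was not tested. The widest gap was at LOC106505849 on chromosome 13, 137 bp from PAXBP1, with 9.84-fold from 42 fragments in replicate 1 and 5.12-fold from 16 fragments in replicate 2. RDH14, a retinol dehydrogenase gene, lies 41 bp from LOC106509892, which had 9.65-fold and 5.47-fold. Only LOC106510103 was past this ratio in the other direction, with 3.93-fold in replicate 1 and 6.24-fold in replicate 2. Across the pairs the Spearman correlation of fold was 0.576 and the Pearson correlation of log2 fold 0.627 (n = 407), against 0.590 and 0.624 over 3733 coding pairs. These describe peaks that passed in both lists.

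**Figure D5:**
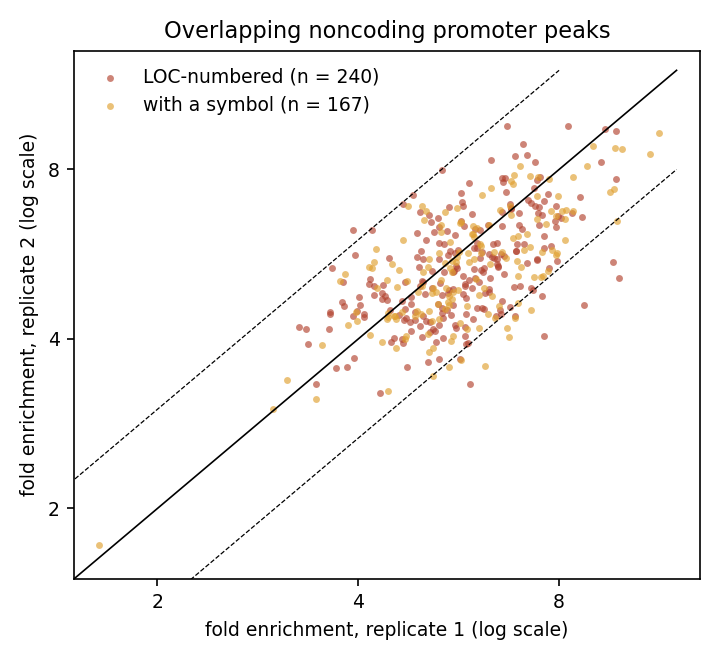
Fold enrichment in replicate 1 (x axis) and replicate 2 (y axis) of the 407 overlapping noncoding promoter peaks, both on log scales, for LOC-numbered genes (red, n = 240) and genes with a symbol (yellow, n = 167). The solid line marks equal values and the dashed lines a ratio of 1.5, past which lie 18 pairs. RN18S, at 1.64 and 1.72, is the lone point at the lower left.

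Peaks with no counterpart were mostly low in fragments, with exceptions. The 3 strongest without an overlapping replicate 2 peak were at SNRPB, named for a core spliceosomal protein and typed as lncRNA (7.70-fold from 16 fragments), RCOR1, the CoREST corepressor scaffold (7.55-fold from 34 fragments, on an unplaced scaffold), and TBL1X, a component of the NCoR corepressor complex (7.25-fold from 15 fragments). The 3 strongest without a replicate 1 peak were at CRIPT (6.62-fold from 17 fragments), which begins within PIGF, 30 bp from its end, LOC106507637 (6.24-fold from 14 fragments) and LOC110255828 (5.89-fold from 11 fragments). RCOR1 alone of these 6 rested on more than 17 fragments.

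The curated NR_ records added 17 peaks in replicate 1 and 13 in replicate 2, mainly at microRNA hairpins. Of the 315 microRNA genes in the table, 12 had a promoter peak in replicate 1 (3.81%), 8 in replicate 2 (2.54%) and 6 in both (1.90%, 0.876 to 4.09). These shares count promoter peaks of any transcript record of the gene. MIR320, whose hairpin lies 18 bp inside the end of POLR3D, an RNA polymerase III subunit gene, had 6.14-fold and 7.21-fold from 17 and 18 fragments. MIRLET7I, of the let-7 family that restrains proliferation and pluripotency genes, had a peak at -529 bp in replicate 1 (6.10-fold, 21 fragments, 13 to 32.1) and at -813 bp in replicate 2 (5.85-fold, 18 fragments, 10.7 to 28.4). MIR92B had 3.96-fold and 4.46-fold, and MIR935 4.26-fold and 5.78-fold. All 4 had a peak upstream of or over the hairpin in both libraries.

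Other microRNAs were found in 1 library. MIR202, a testis-expressed microRNA that maintains spermatogonial stem cells in mice, had a peak at -574 bp in replicate 2 (3.85-fold, 13 fragments, 6.92 to 22.2). In replicate 1 the nearest peak lay 62.7 kb from the hairpin. MIR199A-1 (6.15-fold), MIR181C (3.11-fold), MIR769 (4.42-fold) and MIR9813 (3.78-fold) had a peak in replicate 1 only, and MIR9811 (4.17-fold) in replicate 2 only, each from 8 to 15 fragments. The MIR9819 peak of replicate 1 (6.18-fold) met a replicate 2 peak of 4.92-fold assigned to MPST. Of 41 germ cell microRNAs listed, 21 were in the gene table, and MIRLET7I and MIR202 were the only 2 with a noncoding promoter peak. MIRLET7I alone of these 21 had one in both libraries. Promoter peaks of any transcript record were found in both libraries for 1.90% of the 315 microRNA genes and 12.7% of all genes in the table. Peaks of other kinds were assigned to MIR21 in both libraries, to MIR100 and MIR31 in replicate 1 and to MIR222 in replicate 2. A list of 47 well-known lncRNAs had 2 in the table under the names used (MEG3 and SRA1), and neither had one, although SRA1 was assigned a peak of another kind in both libraries. None of 33 host genes of small nucleolar RNAs and microRNAs and none of 22 structural small RNAs were in the table under these names, so they could not be looked up.

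The 3 NR_ records on 1 unplaced scaffold had a high background, as LOC102157946 did. MIR6782 had 8.82-fold in replicate 1, from 934 fragments (875 to 996), and 8.12-fold in replicate 2, from 606 fragments (559 to 656), over a background of 105 and 73.8 fragments. RN18S, the 18S ribosomal RNA, had the lowest fold of all noncoding peaks, 1.64 and 1.72, over 112 and 77.3 fragments. MIR9816 had 3.13-fold and 3.39-fold over 24.2 and 19.1 fragments. Whether many copies of this sequence in the genome raise these counts was not tested. Leaving out all unplaced scaffolds, which hold 16 and 9 of the noncoding peaks, gave odds ratios of recurrence of 0.893 and 0.903 against coding peaks in replicate 1 and replicate 2.

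The remaining NR_ records were LOC102723301, a signal recognition particle RNA 153 bp from the ribosomal protein gene RPS29 (6.07-fold and 5.04-fold), the lncRNA gene LOC100152407 (6.78-fold and 6.80-fold), AKR1E2 (3.53-fold and 3.91-fold), and ALAS1, a heme synthesis gene name typed here as a transcribed pseudogene (3.90-fold in replicate 1 only). LOC102723301, LOC100152407 and AKR1E2 had overlapping peaks in both libraries. On the X chromosome lay 15 of the 631 (2.38%, 1.45 to 3.88) and 7 of the 453 noncoding peaks (1.55%, 0.750 to 3.15), against 1.82% (1.5 to 2.21) and 1.78% (1.42 to 2.22) of coding ones. Among all genes in the table, with or without a peak, 3.45% of lncRNA genes and 3.69% of protein-coding genes lie on it.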

How the data were processed

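CUT&Tag for ZBTB16 was done in 2 libraries of 1 group, and the submitters' processing notes name the build Sscrofa11.1. The sources used here do not give how reads were aligned, peaks called or transcripts assigned, nor the sequencing depth. An IgG control and RNA-seq were not analysed here. The authors deposited 1 peak list per library with a linear fold (ratio of summit to background), −log10 p and q, a score (not used), a summit and 1 assigned transcript. Both lists begin at a deposited −log10 q-value of 1.31.

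Fragments at a summit and the background were recovered for 100% of peaks (relative tolerance 1e-05) from the deposited fold, taken as the ratio of both with 1 added, and the deposited p, taken as an upper Poisson tail. The recovery was tested on simulated data. The lowest background, 1.21 in replicate 1 and 0.979 in replicate 2, gives a ratio of 1.23 between the libraries. Intervals are exact Poisson for fragments and Wilson for shares, at 95%, and cover counting error only.

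Gene types and ends came from the RefSeq table, which held all 631 and 453 transcripts. Chromosomes 19 and 20 of the files were read as X and Y, where the table places their genes. Recurrence was compared with Fisher's exact test (two-sided) and, as an alternative, a Cochran-Mantel-Haenszel fit. Named are the 10 strongest LOC-numbered and 10 strongest other genes found in both libraries, the 3 strongest unmatched peaks per library, all NR_ records and listed genes with a peak. The members, lists and tests were chosen with earlier results of these data known. Tests used scipy 1.17.1 and statsmodels 0.14.6, tables pandas 2.3.3 and numpy 2.4.6, figures matplotlib 3.10.9, all in Python 3.11.15.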

Additional observations from a re-analysis of the deposited data

How the results depend on the processing

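Recurrence was recomputed under 8 other settings and 1 added after the data were seen (without unplaced scaffolds). Stratified by decile of summit fragments, the odds ratio turned to 1.07 for noncoding against coding peaks in replicate 2 and to 1.03 for LOC-numbered against symbol peaks in replicate 1, with neither passing. Of the comparisons that did not pass as reported, the following passed. Limited to peaks at or above the median fold, noncoding against coding in replicate 1 gave 0.702, and the cause was not tested. With only a promoter peak of the same gene counted, it gave 0.773 in replicate 1, and LOC-numbered against symbol peaks gave 0.567 and 0.533 in replicate 1 and replicate 2. That setting counts a peak assigned to another gene as not recurring. Leaving out a library gives no recurrence, so it was not run there.

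The mean over libraries of the difference in median fold, noncoding minus coding, was 0.0160. It was -0.00199 and 0.0340 with a library left out, and -0.0620 over peaks shared between the libraries. The share of noncoding peaks with a coding gene end within 1 kb upstream was 34.95%, 34.5% to 35.4% with a library left out, 35.7% for peaks within 1 kb of the TSS and 32.5% for a window of 500 bp. The share at lncRNA genes was 59.98%, and 58.9% to 61.0% with a library left out. A median of 18 and 15 fragments per peak limits what the absence of a peak can show.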
